A study of Mus musculus with 2 samples.

Results

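Transcripts of 10 genes of insulin, IGF1 and mTOR signalling were measured in the heart of aged male mice: Igf1, Insr, Igf1r, Irs1, Irs2, Pik3ca, Akt1, Akt2, Mtor and Ddit4. They were picked by name and matched exactly by symbol, and all 10 were found among the 55536 annotated genes of the deposited gene table. The mice were B6CASTF1/J, a first-generation cross of a C57BL/6J and a CAST/EiJ parent, 18 to 20 months of age. Total RNA of heart gave 2 libraries of 1 group, biological replicates 2 and 1, each from 300 ng with ERCC spike-ins (synthetic RNAs of known amount). No allele, drug or diet was named for either sample, so the comparison the design allows is replicate 2 over replicate 1. Both libraries carry the same donor identifier but different sample identifiers, and the labels do not settle whether they come from 1 animal or 2. Each SD (n = 2 libraries) and p-value here therefore describes the gap between these samples, which can be technical.

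Insulin and insulin-like growth factor 1 bind related receptor tyrosine kinases, whose signal passes through the insulin receptor substrate adaptors to PI3-kinase and on to the AKT kinases. AKT promotes glucose uptake, restrains the FoxO transcription factors and, by relieving the TSC complex, activates mTOR complex 1, which drives protein synthesis and holds back autophagy. In heart muscle this pathway governs growth of the myocytes and their use of glucose. DDIT4, also called REDD1, is a stress-induced protein that acts back on the pathway by inhibiting mTOR complex 1.

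The gene tables held 37447840 expected counts (fractional read assignments) in replicate 2 and 39053830 in replicate 1. Mitochondrial genes took 34.4% of the annotated counts in replicate 2 and 29.3% in replicate 1. Levels are given in TPM, which are per length and sum to a fixed total that includes the mitochondrial RNAs, while ratios use expected counts scaled by TMM, which sets library sizes from genes of similar share. Log2(TPM + 1) of the 10882 nuclear protein-coding genes with at least 1 TPM in both libraries, here called detected, had a Pearson r of 0.991 across genes, which are not independent replicates. The tissue label was checked on 10 heart muscle markers, all detected, led by Myl2, the ventricular myosin light chain, at 8366 TPM in replicate 2 and 9599 TPM in replicate 1.

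All 10 genes were detected in both libraries. The lowest count behind any value was 400, for Igf1 in replicate 2, and the highest was 9860, for Insr in replicate 1. Akt1, Akt2, Insr and Ddit4 were the most abundant, with mean levels above those of 88.4% to 92.6% of detected genes. Mtor and Pik3ca stood above 72.6% and 67.9% of them, Irs1 above 53.5%, and Irs2, Igf1 and Igf1r only above 31.2%, 28.6% and 23.4%. The highest mean was 18.7 times the lowest. The order by level was not the same in both libraries: Akt2 was above Akt1 in replicate 2 and below it in replicate 1, Ddit4 was below Insr in replicate 2 and above it in replicate 1, and Irs2 was below Igf1 in replicate 2 and above it in replicate 1. The ranges of Igf1 and Igf1r also overlapped. The other 5 neighbouring pairs in that order, Akt2 and Insr, Ddit4 and Mtor, Mtor and Pik3ca, Pik3ca and Irs1, and Irs1 and Irs2, had ranges that did not overlap.

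**Figure D1:**
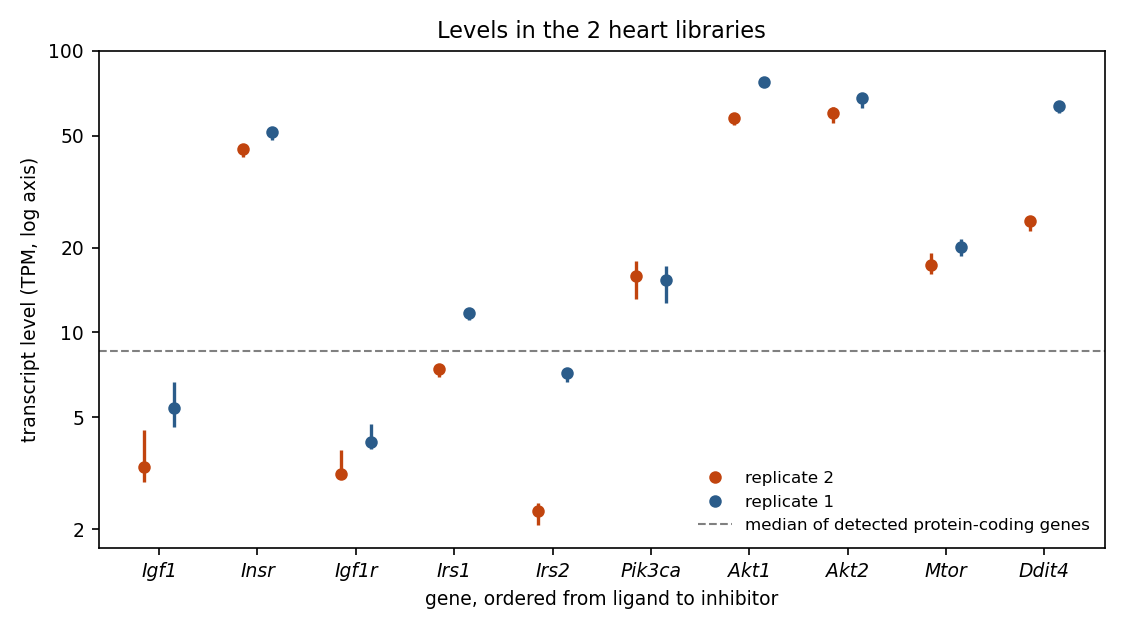
Level of each of the 10 genes in TPM on a log axis, replicate 2 left of replicate 1; points are the deposited values, bars the authors' deposited intervals on them, and the dashed line is the median of 8.6 TPM over detected protein-coding genes. Irs2 and Ddit4 have the widest gap between the libraries, and the bars of Pik3ca, Akt2 and Mtor overlap.

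A gene is called here where the exact binomial test of its counts in the 2 libraries had a Benjamini-Hochberg adjusted p of at most 0.05 over 12189 tested genes (mean of at least 1 TPM) and the ratio was at least 2-fold. Of the 10 genes, 2 were called lower in replicate 2, Irs2 and Ddit4, and 0 were called higher. Of all tested genes 0.968% were called lower and 0.476% higher. By the adjusted p alone, with no minimum fold, 8 of the 10 were lower in replicate 2 and 0 were higher, against 15.9% and 10.7% of tested genes, so at these counts that test also passes small differences. The authors' deposited intervals on TPM were apart and lower in replicate 2 for 7 of the 10 genes and higher for 0, against 20.4% and 1.81% of tested genes. The median log2 ratio was -0.30 over the 10 genes and -0.02 over all tested genes, and the central 95% of tested genes ran from -0.66 to 0.56. The coefficient of variation between the libraries, estimated by edgeR over 14734 genes, was 11.1%.

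**Figure D2:**
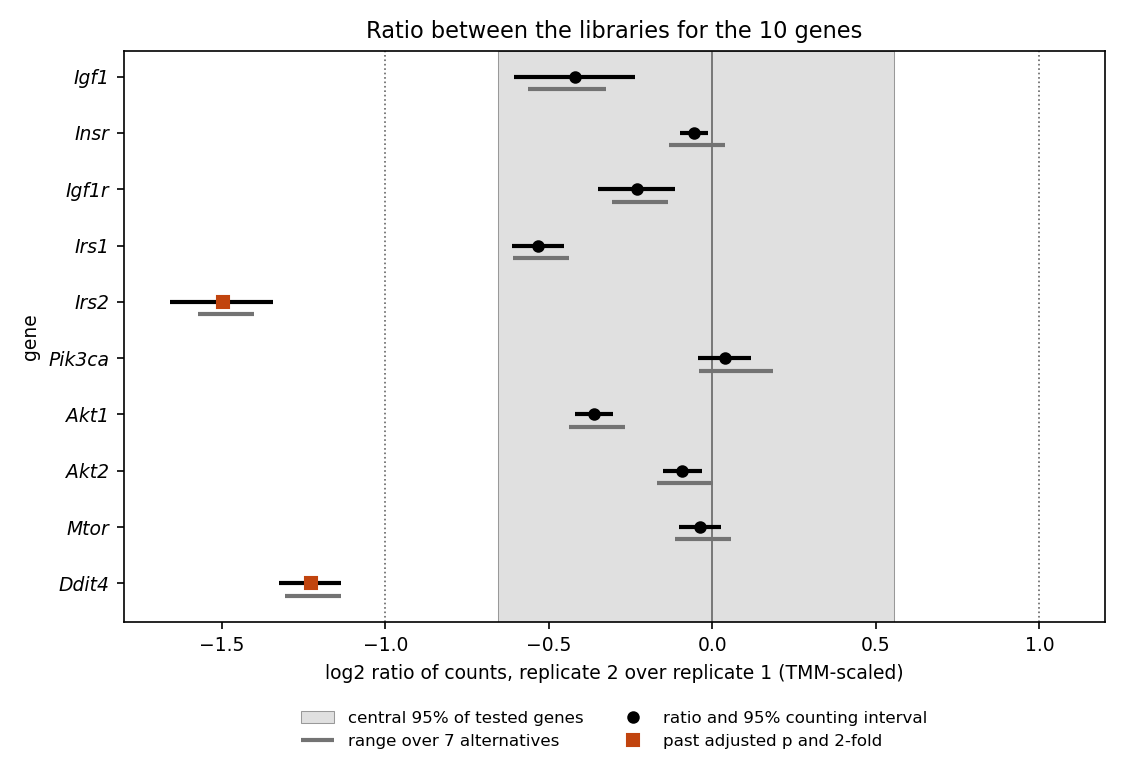
Log2 ratio of TMM-scaled counts, replicate 2 over replicate 1, for the 10 genes; points with black bars are the ratio and its 95% counting interval, grey bars the range over 7 alternative scalings or count sources, the grey band the central 95% of tested genes and the dotted lines 2-fold. Irs2 at -1.50 and Ddit4 at -1.23 lie outside the band and past the 2-fold line, and the other 8 genes lie inside the band.

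Sequence is shown first for the genes that carry these differences. Irs2 and Ddit4 were the 2 called genes, and Irs1, the partner adaptor of Irs2, had the next lowest ratio. Each stretch is from the RefSeq promoter entry on GRCm38.p6, ends 5′ of both the RefSeq and the GENCODE start of the gene, and is read along the gene's strand, which is minus for all 3 genes. Capitals mark matches on either strand to GGGCGG, called the GC box, or to CCAAT, the CCAAT box. They also mark CACGTG, an E-box that is the same on both strands. The core of a hypoxia response element, ACGTG, lies inside that E-box and is marked elsewhere as well.
Irs1 promoter, chr1:82291440-82291689: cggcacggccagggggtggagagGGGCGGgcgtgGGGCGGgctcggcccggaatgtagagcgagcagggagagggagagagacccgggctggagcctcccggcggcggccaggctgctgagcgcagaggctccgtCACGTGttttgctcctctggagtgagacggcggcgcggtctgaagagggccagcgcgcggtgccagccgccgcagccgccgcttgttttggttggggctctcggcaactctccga
Irs2 promoter, chr8:11008930-11009179: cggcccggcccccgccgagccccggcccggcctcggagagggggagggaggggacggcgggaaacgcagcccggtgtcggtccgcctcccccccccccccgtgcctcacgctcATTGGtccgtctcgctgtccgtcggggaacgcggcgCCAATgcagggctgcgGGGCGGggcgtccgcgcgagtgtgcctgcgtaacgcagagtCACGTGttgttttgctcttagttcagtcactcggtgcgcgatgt
Ddit4 promoter, chr10:59951835-59952020: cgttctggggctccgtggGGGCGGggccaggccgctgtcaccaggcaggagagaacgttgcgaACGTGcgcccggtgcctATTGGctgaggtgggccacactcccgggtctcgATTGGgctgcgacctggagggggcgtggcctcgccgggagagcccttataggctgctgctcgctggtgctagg

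The Irs1 and Irs2 stretches each hold 1 CACGTG, which begins 115 bases before the RefSeq start in Irs1 and 44 bases before it in Irs2. The GENCODE start of Irs2, at base 11008458 of chr8, lies downstream of its RefSeq start at base 11008929, so CACGTG is further from it. CACGTG is in 7.15% of the 32851 promoter entries of 300 bases, and among the 9 of the 10 genes with an entry, which have 13 entries in all (2 for Akt1 and 4 for Akt2), these 2 were the only ones that held it. Ddit4 holds an ACGTG that is not part of a CACGTG, as do Pik3ca and Akt2. In all, 5 of the 13 entries hold ACGTG (38.5%), against 19.6% of all entries. GGGCGG was found in 8 of the 13 (61.5%), against 35.7% of all entries. CCAAT was found in 5 of the 13 (38.5%), near the 37.4% of all entries. The Irs2 and Ddit4 stretches each hold 2 CCAAT matches, and Irs1 has none in its entry. No entry of the 9 genes holds TATAAA, the TATA box, which 13.6% of all entries hold. The cyclic AMP response element TGACGTCA was in 0 of the 13 entries and 1.79% of all entries. A glucocorticoid receptor site motif of 6 letters, AGAACA, was in 0 of the 13 entries and 19.0% of all entries. The FoxO element TGTTTAC was in 1 of the 13 entries, of Akt1, and 3.65% of all entries. The ATF4 element TGATGNAA was in 1 of the 13 entries, of Akt2, and 3.97% of all entries. Irs1, Irs2 and Ddit4 entries were rich in G and C, at 71.3%, 72.0% and 69.0%, against a median of 52.7% over all entries.

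Of the ligands, Igf1, the growth factor made locally in heart as well as by the liver, was at 3.33 TPM in replicate 2 and 5.40 TPM in replicate 1 (mean 4.37 ± 1.46, SD, n = 2). Its 400 expected counts in replicate 2 and 589 in replicate 1 gave a log2 ratio of -0.42, with a 95% interval of -0.61 to -0.24 and an adjusted p of 5.62e-05 by the exact binomial test. It was 1.34-fold lower in replicate 2 by counts, short of 2-fold. The TPM differed more than the counts did, since the deposited effective length of the gene, the mean length over which its reads could start, was 3919 bases in replicate 2 and 3533 bases in replicate 1. Igf2, the fetal growth factor and the most abundant of the 4 ligand genes compared, was at 16.7 TPM in replicate 2 and 19.1 TPM in replicate 1. Igf1 was therefore 16.6% of the summed TPM of Igf1, Igf2, Ins1 and Ins2 in replicate 2 and 22.0% in replicate 1. The insulin genes Ins1 and Ins2 had 0 counts in both libraries, which allows up to 3 counts of each in a library.

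Insr, the insulin receptor, was at 44.7 TPM in replicate 2 and 51.4 TPM in replicate 1 (mean 48.0 ± 4.70, SD, n = 2). Igf1r, the receptor for IGF1, was at 3.14 TPM in replicate 2 and 4.08 TPM in replicate 1 (mean 3.61 ± 0.66, SD, n = 2). Insr thus made up 93.3% of the TPM of the receptor family in replicate 2 and 92.6% in replicate 1, and Igf1r 6.55% in replicate 2 and 7.36% in replicate 1. The orphan receptor Insrr was at 0.05 TPM in replicate 2, from 7 counts, and at 0.01 TPM in replicate 1, from 1 count. By counts, without the correction for length, the Igf1r share was 10.8% in replicate 2 (95% Clopper-Pearson interval 10.2 to 11.5) and 12.05% in replicate 1 (11.5 to 12.7). The order of the receptors was the same on both scales.

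The log2 ratio of Insr was -0.056 for replicate 2 over replicate 1 (95% interval -0.098 to -0.014, adjusted p = 0.035 by the exact binomial test), and it turned to 0.038 when spike-in counts set the library sizes (adjusted p = 0.16). With nuclear protein-coding counts as library size its adjusted p was 0.94 by the same exact test. Of all tested genes 74.8% had a ratio at least as far from 0. For Igf1r the log2 ratio was -0.23 (95% interval -0.35 to -0.11, adjusted p = 7.44e-04 by the exact binomial test), and with spike-in scaling its adjusted p was 0.064. Neither receptor reached 2-fold.

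Of the adaptors, Irs1, the substrate through which insulin signals mainly in muscle, was at 7.42 TPM in replicate 2 and 11.7 TPM in replicate 1 (mean 9.58 ± 3.05, SD, n = 2). Its 2058 counts in replicate 2 and 3275 in replicate 1 gave a log2 ratio of -0.53 (95% interval -0.61 to -0.45, adjusted p = 1.97e-38 by the exact binomial test), which is 1.45-fold lower in replicate 2. Only 3.36% of tested genes had a ratio as low.

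Irs2, the substrate best known for insulin signalling in liver and beta cells, is ENSMUSG00000038894.7 at chr8:10984681-11008458 on the minus strand of mm10. It was at 2.32 TPM in replicate 2 and 7.17 TPM in replicate 1 (mean 4.75 ± 3.43, SD, n = 2). Its counts were 443 in replicate 2 and 1378 in replicate 1. Replicate 2 was the low library in both measures. Irs2 fell in replicate 2 by 1.50 on the log2 scale (95% interval -1.66 to -1.34), or 2.82-fold, with an adjusted p of 6.69e-91 by the exact binomial test. It ranked 69 from the lowest of the 12189 tested ratios. The call held in all 6 alternative tests, over which the log2 ratio ran from -1.57 to -1.40.

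Within the substrate family Irs1 was the more abundant gene in both libraries, by a wider margin in replicate 2. Irs2 made up 23.2% of the TPM of Irs1 to Irs4 in replicate 2 and 37.2% in replicate 1. Irs1 was at 74.3% in replicate 2 and 60.9% in replicate 1. By counts the Irs2 share was 17.6% in replicate 2 (95% Clopper-Pearson interval 16.1 to 19.1) and 29.5% in replicate 1 (28.2 to 30.8), and these intervals are apart. Irs3, a substrate gene that is functional in rodents, was at 0.25 TPM in replicate 2 and 0.35 TPM in replicate 1. Irs4 had 0 counts in both.

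Pik3ca, the p110-alpha catalytic subunit of PI3-kinase, was at 15.9 TPM in replicate 2 and 15.3 TPM in replicate 1 (mean 15.6 ± 0.42, SD, n = 2). It was the only one of the 10 genes whose ratio was above 0, at 0.038 on the log2 scale (95% interval -0.043 to 0.12, adjusted p = 0.56 by the exact binomial test), and that sign turned to -0.039 when total counts set the library sizes. With spike-in scaling it was 0.13, with an adjusted p of 0.0063 by the same exact test. Pik3ca made up 74.3% of the TPM of the 4 class I catalytic subunit genes in replicate 2 and 72.9% in replicate 1. Pik3cb, the beta subunit, was at 3.72 TPM in replicate 2 and 3.78 TPM in replicate 1. The leukocyte-enriched subunits Pik3cd and Pik3cg were lower: Pik3cd was at 1.27 TPM in replicate 2 and 1.42 TPM in replicate 1, and Pik3cg at 0.51 TPM in replicate 2 and 0.48 TPM in replicate 1.

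Akt1, the AKT kinase most tied to growth and survival, was at 57.6 TPM in replicate 2 and 77.7 TPM in replicate 1 (mean 67.6 ± 14.3, SD, n = 2). Its log2 ratio was -0.36 (95% interval -0.42 to -0.30, adjusted p = 2.66e-34 by the exact binomial test), or 1.28-fold lower in replicate 2. Akt2, the kinase most tied to insulin-stimulated glucose uptake, was at 60.0 TPM in replicate 2 and 67.9 TPM in replicate 1 (mean 63.9 ± 5.58, SD, n = 2). For Akt2 the log2 ratio was -0.092 (95% interval -0.15 to -0.031, adjusted p = 0.014 by the exact binomial test), and with spike-in scaling it was 0.0030 (adjusted p = 0.97). With nuclear protein-coding counts as library size its adjusted p was 0.38 by the same exact test. The authors' deposited intervals on the TPM of Akt2 overlapped between the libraries and those of Akt1 did not.

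The 2 kinases were nearly equal in level. Akt1 was 48.97% of the summed TPM of Akt1 and Akt2 in replicate 2 and 53.4% in replicate 1, and Akt2 was 51.03% in replicate 2 and 46.6% in replicate 1. By the second deposited transcript table, summed per gene, Akt1 led in both libraries, at 54.2% in replicate 2 and 54.4% in replicate 1 of that sum, with Akt2 at 45.8% in replicate 2 and 45.6% in replicate 1. Which of them is the more abundant therefore depended on the table in replicate 2. Akt2 shares 10.7% of the 100-base stretches of its leading transcript with the processed pseudogene Akt2-ps, which was credited with 141 counts in replicate 2 and 210 in replicate 1, so reads could be split between them. No other gene of the 10 shared a 100-base stretch of its leading transcript with another gene.

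Mtor, the kinase of both mTOR complexes, was at 17.4 TPM in replicate 2 and 20.05 TPM in replicate 1 (mean 18.7 ± 1.87, SD, n = 2). Its log2 ratio was -0.037 (95% interval -0.10 to 0.028, adjusted p = 0.45 by the exact binomial test), and it turned to 0.057 with spike-in scaling and to 0.015 with nuclear protein-coding counts as library size. With total counts as library size it was -0.11, with an adjusted p of 0.0024 by the same exact test. Rptor, the scaffold of complex 1, was at 10.8 TPM in replicate 2 and 13.7 TPM in replicate 1, and Rictor, the scaffold of complex 2, at 4.50 TPM in replicate 2 and 4.67 TPM in replicate 1. Mtor was 53.2% of the sum of these 3 genes in replicate 2 and 52.2% in replicate 1. By the second transcript table it was 45.0% in replicate 2 and 44.8% in replicate 1.

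Ddit4, the inhibitor of mTOR complex 1, is ENSMUSG00000020108.4 at chr10:59949669-59951834 on the minus strand of mm10. It was at 24.8 TPM in replicate 2 and 63.6 TPM in replicate 1 (mean 44.2 ± 27.4, SD, n = 2), from 1259 counts in replicate 2 and 3248 in replicate 1. The libraries stood further apart in TPM for Ddit4 than for any other of the 10 genes. Ddit4 was 2.34-fold lower in replicate 2, with a 95% interval of the log2 ratio from -1.33 to -1.14 and an adjusted p of 2.72e-158 by the exact binomial test. It ranked 92 from the lowest of all tested ratios, and the call held in all 6 alternative tests, with log2 ratios from -1.31 to -1.13. Its paralog Ddit4l, also an inhibitor of mTOR complex 1, was at 1.69 TPM in replicate 2 and 0.74 TPM in replicate 1, with 79 counts in replicate 2 and 55 in replicate 1. The log2 ratio of Ddit4l by counts was 0.64, and it was not called (adjusted p = 0.038 by the exact binomial test, under 2-fold by counts). Its TPM stood further apart than its counts, by more than 2-fold. Ddit4 made up 93.6% of the TPM of the pair in replicate 2 and 98.8% in replicate 1.

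**Figure D3:**
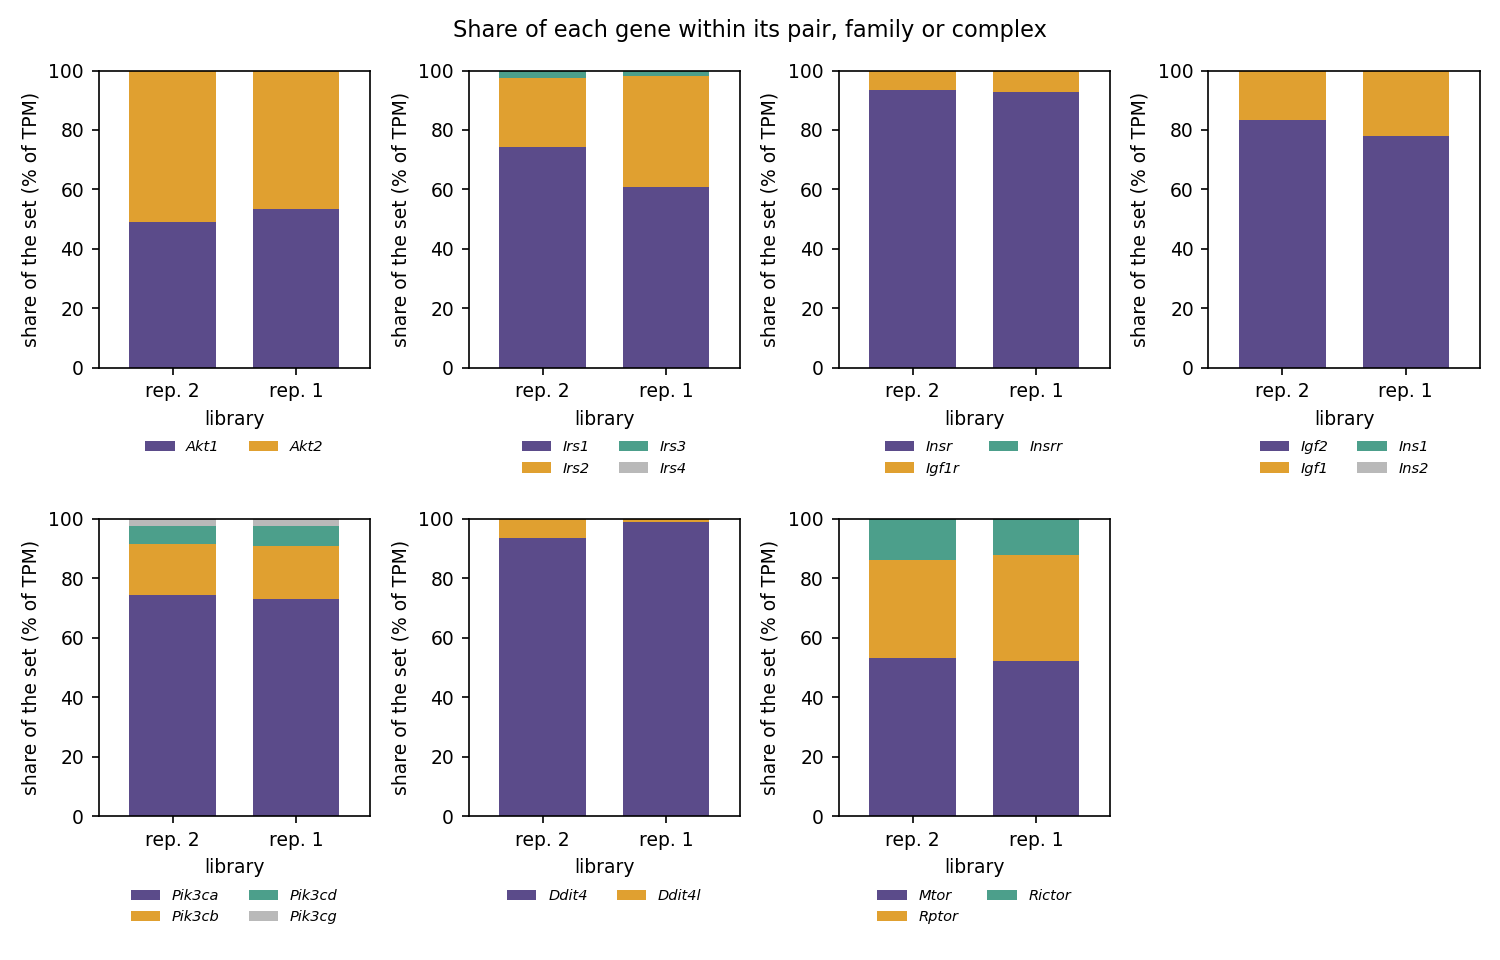
Percent of the summed TPM within each pair, family or complex, as stacked bars with replicate 2 left of replicate 1. Irs2 takes 23.2% of its family in replicate 2 and 37.2% in replicate 1, while Insr takes over 92% of the receptor family in both.

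The read counts of Irs2 and Ddit4 do not rest on how reads were divided among isoforms, since each of these genes, like Irs1, has 1 annotated transcript in GENCODE M21. Irs2-201 is 6323 bases long with 2 exons, both coding, and Ddit4-201 is 1755 bases with 3 exons, of which 2 are coding. The whole coding sequence of Irs1 lies in 1 exon. Genes that overlap the 10 in position were at or near 0: the highest was Angptl7, on the strand opposite to Mtor, with 26 counts in replicate 2 and 31 in replicate 1. The 7 other genes have several transcripts, and the 2 deposited transcript tables divided the reads among them differently. The leading transcript was the same in both tables for 9 of the 10 genes.

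Insr and Igf1 each have a short exon that separates forms with known roles, and those exons are shown for that reason. The Insr exon of 36 bases, chr8:3181702-3181737 on the minus strand of mm10, keeps the reading frame and separates the B form of the receptor, which holds it, from the A form, which lacks it. The Igf1 exon of 52 bases, chr10:87915298-87915349 on the plus strand, shifts the frame and gives the E peptide known in rodents as Eb. Both are read from GENCODE M21 transcripts, in lower case throughout.
Insr alternative exon: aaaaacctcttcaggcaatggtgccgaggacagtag
Igf1 alternative exon: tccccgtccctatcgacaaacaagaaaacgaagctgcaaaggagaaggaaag

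Insr-201, which skips the 36-base exon, led in both tables, at 27.8 TPM in replicate 2 and 31.6 TPM in replicate 1 by the first table, where it held 61.8% ± 0.51 of the gene's TPM (SD, n = 2). Its mean share was 73.2% by the second. The exon is annotated as an exon of its own in Insr-203, a fragment of 672 bases, which was at 4.08 TPM in replicate 2 and 4.87 TPM in replicate 1, from 71.7 counts in replicate 2 and 86.05 in replicate 1. The second table gave that fragment 5.76 TPM in replicate 2 and 6.06 TPM in replicate 1. Reads from elsewhere in an RNA that holds the exon match Insr-201 as well, so these levels do not measure the ratio of the A and B forms. Insr-202, a retained-intron transcript, was at 12.2 TPM in replicate 2 and 14.4 TPM in replicate 1 by the first table, and at 4.78 TPM in replicate 2 and 5.89 TPM in replicate 1 by the second. By the first table Insr-201, Insr-202 and Insr-203 held 62.2%, 27.3% and 9.12% of the gene in replicate 2 and 61.4%, 28.1% and 9.48% in replicate 1, with little difference between the libraries.

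Igf1 has 8 annotated transcripts, all coding, and Igf1-202 led in both tables, with 46.3% ± 2.06 of the gene's TPM (SD, n = 2) in the first. Its 3′ UTR is 89.5% of its 7052 bases, the highest share among the leading transcripts of the 10 genes. The 3 transcripts with the 52-base exon held 29.0% of Igf1 TPM in replicate 2 and 45.2% in replicate 1 in the first table. In the second table they held 9.13% in replicate 2 and 26.8% in replicate 1. These shares rest on 43.9 expected counts in replicate 2 and 56.3 in replicate 1 by the first table, and on 10.7 estimated counts in replicate 2 and 18.1 in replicate 1 by the second. The values differed more between the tables than between the libraries. In both tables the share was lower in replicate 2. By the first table Igf1-203 was at 0.89 TPM in replicate 2 and 0.47 TPM in replicate 1. Igf1-206 was at 0 TPM in replicate 2 and 1.97 TPM in replicate 1 by that table. For each of these transcripts the deposited intervals of the libraries overlapped, so a change in which transcript carried the share is not shown. Transcripts whose coding sequence begins in the downstream of the 2 leader exons held 25.4% of Igf1 TPM in replicate 2 and 46.5% in replicate 1 by the first table. This rests on 19.3 counts in replicate 2 and 47.8 in replicate 1. By the second they held 53.2% in replicate 2 and 60.3% in replicate 1, from 36.4 and 60.7 estimated counts. The deposited intervals of each of these transcripts also overlapped between the libraries, so a change of leader exon is not shown.

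For Akt2 the tables disagreed on the leading transcript. The first gave Akt2-201 27.9 TPM in replicate 2 and 33.3 TPM in replicate 1, and Akt2-204 1.06 TPM in replicate 2 and 0.59 TPM in replicate 1. The second gave Akt2-204 28.6 TPM in replicate 2 and 31.1 TPM in replicate 1, and Akt2-201 12.9 TPM in replicate 2 and 17.4 TPM in replicate 1. Akt2-206, a fragment of 453 bases, held 28.2% of the gene in replicate 2 and 18.0% in replicate 1 in the first table and was listed at 0 in the second. Akt2-214 was likewise at 6.37 TPM in replicate 2 and 10.7 TPM in replicate 1 in the first table and listed at 0 in the second. Akt2-201 and Akt2-204 begin in the same first exon, and with Akt2-212 they held 49.0% of the gene in replicate 2 and 50.8% in replicate 1 by the first table, and 71.2% in replicate 2 and 67.6% in replicate 1 by the second.

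Single transcripts led the other 4 genes in both tables. In the first table Igf1r-201, the only coding transcript of Igf1r, held 94.6% ± 1.34 of the gene (SD, n = 2), and Akt1-201 held 90.2% ± 4.78 (SD, n = 2). In the second the mean share of Igf1r-201 was 88.3%, and Akt1-201 held 77.0% in replicate 2 and 93.1% in replicate 1. There Akt1-208 took 19.2% of Akt1 in replicate 2 and 3.85% in replicate 1. Mtor-202, with 58 exons, held 76.5% ± 1.66 (SD, n = 2) in the first table, and Mtor-201, a coding fragment of 1003 bases, held 22.0% in replicate 2 and 24.5% in replicate 1. In the second table Mtor-202 held 94.3% in replicate 2 and 89.5% in replicate 1. Pik3ca-203 held 67.1% in replicate 2 and 75.4% in replicate 1 in the first table, where the retained-intron fragment Pik3ca-204 of 440 bases took 28.9% in replicate 2 and 20.7% in replicate 1. In the second table Pik3ca-203 held 84.1% in replicate 2 and 96.6% in replicate 1.

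**Figure D4:**
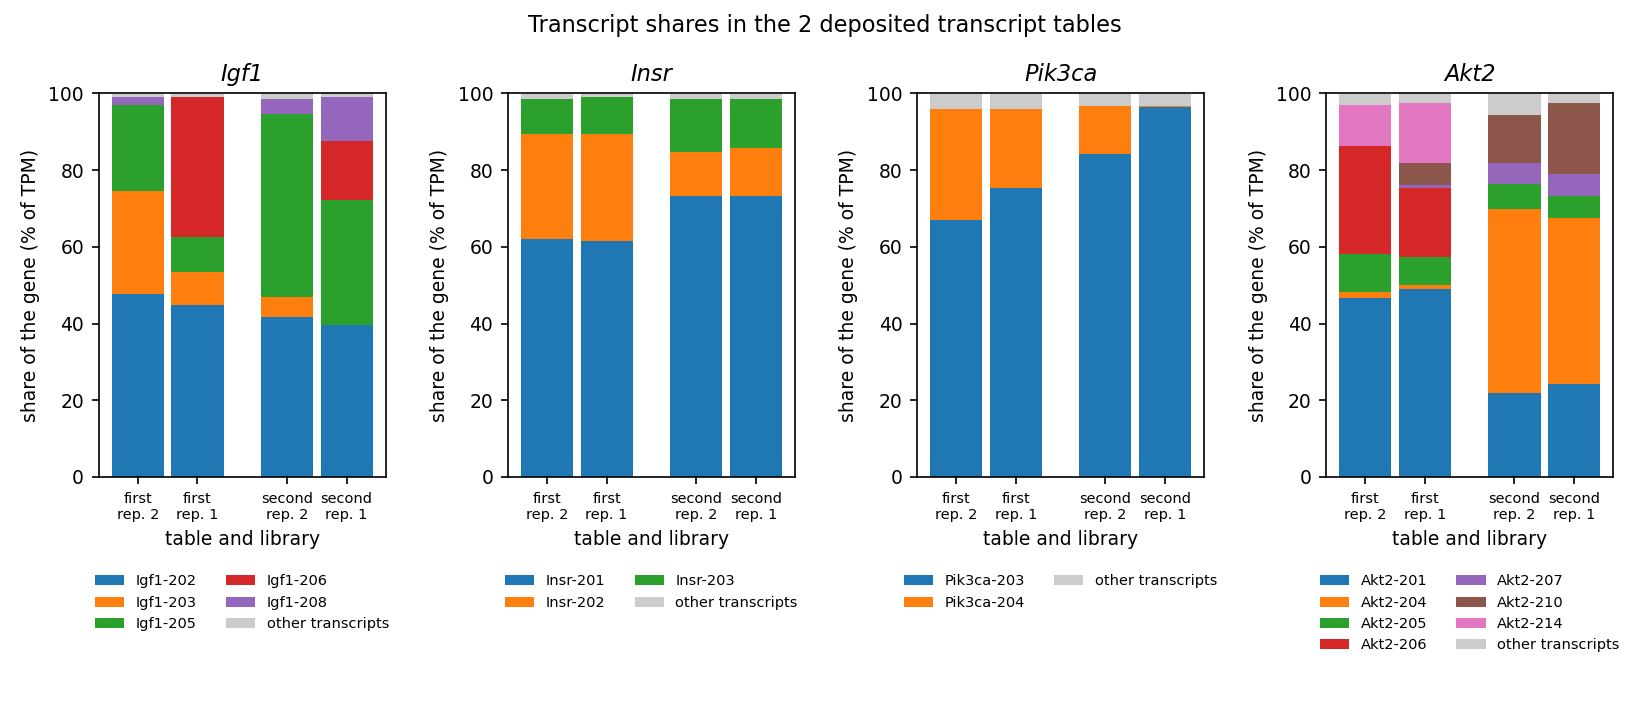
Percent of the gene's TPM held by each annotated transcript of Igf1, Insr, Pik3ca and Akt2, in the first and the second deposited transcript table, replicate 2 left of replicate 1 in each; transcripts under 5% in all 4 bars are pooled as other. Insr bars are alike between libraries, and the Akt2 bars change with the table more than with the library.

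The rest of the pathway was read from 9 lists of 117 further genes, of which 101 were tested, 99 were detected and 14 were under 1 TPM in both libraries. None of the 101 was called, higher or lower, by the exact binomial test with the 2-fold minimum. By that test's adjusted p alone 12 of the 101 were higher and 25 lower in replicate 2. Of all tested genes 10.7% were higher and 15.9% lower by that measure. The median log2 ratio of the 101 genes was -0.04, close to the -0.02 of all tested genes, and ran by list from -0.18 to 0.07. Of the 101 genes, 61 were below 0 and 40 above, where 54.5% of all tested genes were below 0, and their median turned to 0.059 with spike-in scaling and to 0.017 with nuclear protein-coding counts as library size.

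Of the ligands and IGF binding proteins, 8 of 13 were tested, 6 of them below 0, with Igfbp7 at 52.8 TPM in replicate 2 and 70.8 TPM in replicate 1 the most abundant. Igfbp5, a binding protein that can hold IGFs in the matrix, had the highest ratio of this list, 0.35 on the log2 scale. Igfbp1, Igfbp2 and the protease gene Pappa were under 1 TPM in both libraries. Among receptors and adaptors, Grb14, which binds and inhibits the insulin receptor, was at 84.1 TPM in replicate 2 and 105 TPM in replicate 1. Of the PI3-kinase regulators, Pik3r1, the p85-alpha subunit, was at 33.5 TPM in replicate 2 and 41.6 TPM in replicate 1, and Inppl1, the lipid phosphatase SHIP2, at 70.95 TPM in replicate 2 and 80.5 TPM in replicate 1. Slc2a4, the insulin-responsive glucose transporter GLUT4, was at 148 TPM in replicate 2 and 162 TPM in replicate 1, with a log2 ratio of 0.0054. Acly, the ATP citrate lyase that AKT phosphorylates, had the lowest ratio of the AKT list, -0.64.

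The median log2 ratios of the mTOR complex list, -0.02, and of the TSC and Rheb list, -0.05, were close to the -0.02 of all tested genes. Their 13 tested genes ran from -0.14 to 0.32, the highest being Tti1. Tsc2, the GTPase-activating subunit of the complex on which AKT acts, was at 43.5 TPM in replicate 2 and 42.05 TPM in replicate 1. All 25 amino acid sensing genes were tested, and the lowest ratio was that of Fnip2, a folliculin partner, at -0.92, with 4.83 TPM in replicate 2 and 9.99 TPM in replicate 1. Sesn1, a leucine sensor, was at 30.2 TPM in replicate 2 and 54.5 TPM in replicate 1 (log2 ratio -0.68). Of the 13 tested mTORC1 substrates and outputs, the lowest ratio was -0.21, for Lpin1, and Rps6 was the most abundant at 188 TPM in replicate 2 and 215 TPM in replicate 1. Among inhibitors other than Ddit4, Errfi1, an inhibitor of the EGF receptor, had the lowest ratio at -0.92. Sh2b2, Prr5l, Rhebl1, Eif4ebp3 and Socs1 were under 1 TPM in both libraries.

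Several signals are known to induce Irs2 or Ddit4, and lists of genes that respond to them were read beside the 2 genes. Of all tested genes 0.968% were called lower, 0.476% were called higher and 54.5% had a ratio below 0. Of 17 FoxO-induced genes, which AKT represses, all were tested, 2 were called lower, which were Irs2 and Ddit4 themselves, and 1 was called higher. That one was Txnip, a restrainer of glucose uptake, at 329 TPM in replicate 2 and 175 TPM in replicate 1 (log2 ratio 1.08, adjusted p given as 0 by the exact binomial test, below the smallest number that can be stored). Pdk4, the kinase that closes off pyruvate oxidation, was at 253 TPM in replicate 2 and 166 TPM in replicate 1 (log2 ratio 0.84). Sod2, the mitochondrial superoxide dismutase, was the most abundant of the list, at 382 TPM in replicate 2 and 446 TPM in replicate 1 (log2 ratio -0.01). Of the 17 genes, 11 were below 0 and 6 above. With Insr, Irs2 and Ddit4 left out 8 of 14 were below 0 and the median was -0.06.

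Of 15 glucocorticoid-responsive genes, 14 were below 0 and 3 were called lower, against 54.5% and 0.968% of all tested genes. The 3 were Ddit4, Cdkn1a, a cell cycle inhibitor, and Per1, a clock gene. With Ddit4 left out, 13 of 14 were below 0 and the median log2 ratio was -0.76. The summed level of the 14 was 280 TPM in replicate 2 and 453 TPM in replicate 1, led by Mt1, a metallothionein, at 67.7 TPM in replicate 2 and 96.8 TPM in replicate 1. Tsc22d3, also called GILZ, was at 38.4 TPM in replicate 2 and 77.3 TPM in replicate 1, and Zbtb16, the 1 gene above 0, was at 44.5 TPM in replicate 2 and 49.1 TPM in replicate 1. Of the ATF4-induced genes 13 of 16 were tested and 4 were called lower, Ddit4, Cebpb, Atf3 and Chac1, with a median of -0.26 when Ddit4 was left out. Vldlr, the very low density lipoprotein receptor, had the highest level and the highest ratio of that list, 0.11 on the log2 scale. Cebpb, a transcription factor, was at 20.0 TPM in replicate 2 and 51.3 TPM in replicate 1. These lists overlap in their genes, and their part in the ratios of Irs2 and Ddit4 was not tested.

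**Figure D5:**
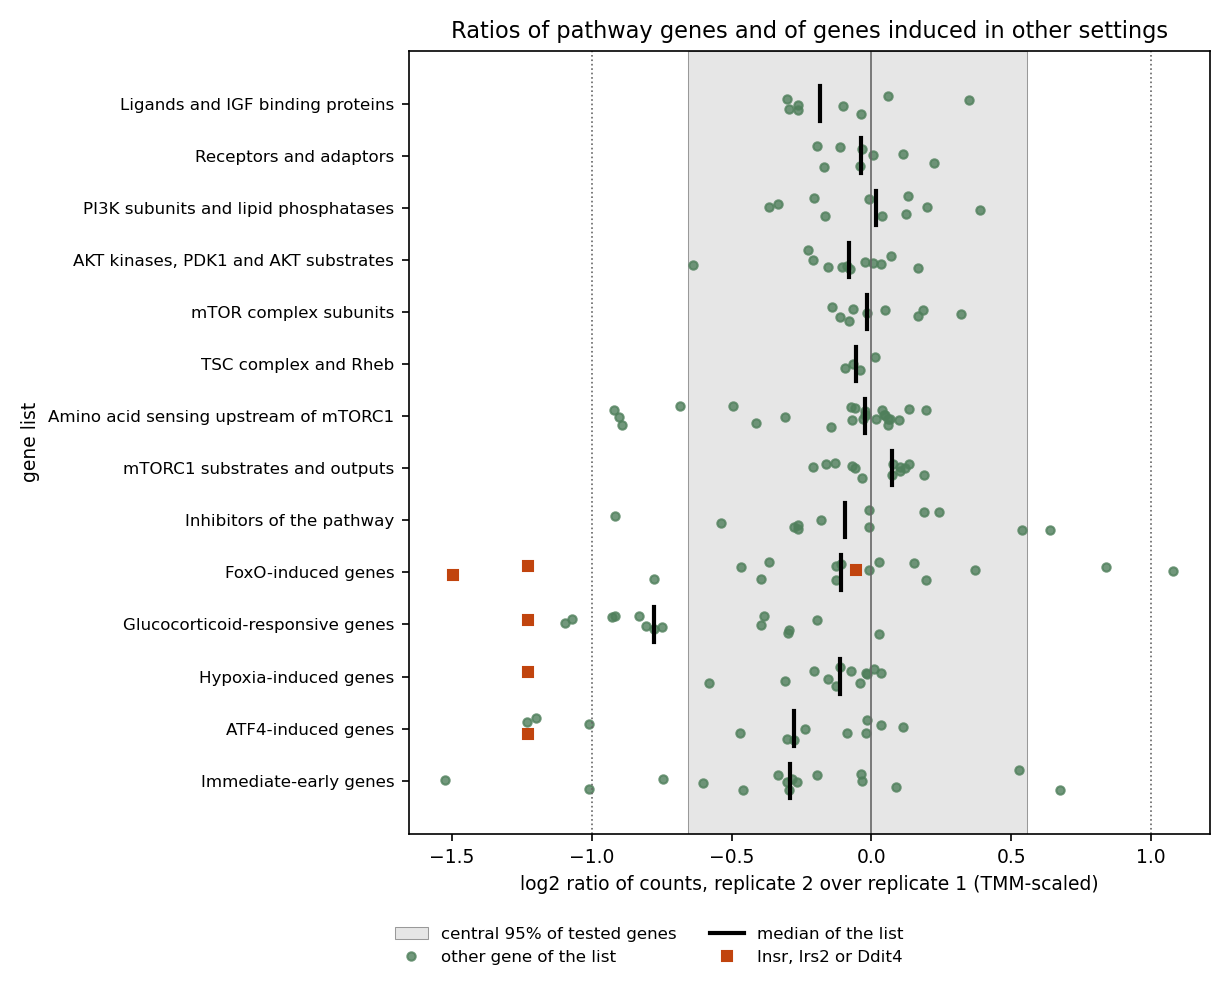
Log2 ratio of TMM-scaled counts, replicate 2 over replicate 1, for each tested gene of the 9 pathway lists and of 5 lists of genes induced by other signals, with the list's median as a bar; squares are Insr, Irs2 and Ddit4 where a list holds them, the grey band is the central 95% of tested genes. The pathway medians lie between -0.18 and 0.07, and the glucocorticoid list has its median at -0.78 with Ddit4 included.

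Markers of other cells also differed between the libraries, and in bulk RNA fewer cells of a type and less RNA per cell cannot be told apart. Of 12 white adipocyte markers 11 were tested and 7 were called lower in replicate 2, against 0.968% of all tested genes. Of these 11 markers 9 were below 0 and 2 above, with a median log2 ratio of -1.54 and a highest of 0.095. The summed level of the 12 markers was 272 TPM in replicate 2 and 334 TPM in replicate 1. Adipoq, the fat cell hormone adiponectin, was at 1.15 TPM in replicate 2 and 5.98 TPM in replicate 1. Lep, leptin, was under 1 TPM in both, and no marker was at 0. Fabp4, which endothelium also expresses, took 207 TPM of the sum in replicate 2 and 216 TPM in replicate 1. Fabp4 and Plin4 together held most of the sum and differed little between the libraries. Without these 2 the other 10 markers summed to 19.6 TPM in replicate 2 and 70.8 TPM in replicate 1. That partial sum drops markers that differed little, so it overstates the gap of the whole list, and it was not tested. The 6 atrial muscle markers, all tested, summed to 820 TPM in replicate 2 and 1377 TPM in replicate 1, with none at 0 TPM. Of the 6, 5 had a ratio below 0 and 1 above, with a median log2 ratio of -0.43 and a highest of 0.17. Only Bmp10, an atrial growth factor, was called lower, at 1.55 TPM in replicate 2 and 18.5 TPM in replicate 1. The 10 macrophage markers summed to 121 TPM in replicate 2 and 166 TPM in replicate 1, with 0 called. Their median log2 ratio was -0.32, with 8 below 0 and 2 above. By the adjusted p of the exact binomial test alone 7 of the 10 were lower and 0 higher, against 15.9% and 10.7% of tested genes. Fibroblast and endothelial markers had medians of -0.04 and 0.04 and 0 called. The part of these cells in the ratios of Irs2, Ddit4, Irs1 and Igf1 was not tested.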

How the data were processed

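Total RNA of mouse heart was sequenced as 2 stranded, ribosomal RNA-reduced libraries, per the labels. The authors deposited a gene table and a first transcript table of expected counts and TPM, with interval bounds on TPM that are treated here as a score, and a second transcript table of estimated counts and TPM. Per that deposit's file list, reads were quantified on mm10 with GENCODE M21; the tools are not given in the sources used here. Entries that name no annotated gene, 96 spike-ins and 26249 others (2 counts or fewer in either library), were left out.

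Expected counts were rounded to whole numbers. Library sizes were scaled by TMM in edgeR 4.0.16 (R 4.3.3), and log2 ratios used a prior count of 2. With 1 library against 1 no quasi-likelihood test could be had, so every gene whose mean reached 1 TPM was compared by the exact conditional binomial test, two-sided, with Benjamini-Hochberg adjustment at 0.05 in scipy 1.17.1. It compares the reads of the 2 libraries, not conditions. Intervals are 95% Clopper-Pearson, and intervals and the floor of 3 counts cover counting error only. The log2 size of library 2 over library 1 was -0.14 by TMM, -0.12 by DESeq2 1.42.0, -0.060 by total counts, -0.23 by spike-ins and -0.19 by nuclear protein-coding counts.

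The 10 genes, the 9 pathway lists, 5 lists of induced genes, 10 marker lists and the tests were chosen with earlier results of these data known. Named genes were drawn from the 10 members, the genes of their families, and, of each pathway list, the 4 of highest level, those called, those of highest and lowest ratio and those under 1 TPM. Of each other list they were drawn from the 3 of highest level, those of highest and lowest ratio and those called. Not every gene the rule admits is named. Other genes named were chosen after their values were seen. Some genes of the pathway lists are not reported here. The symbol Ero1a of the hypoxia list had no match. The test was tried on simulated data. Alternatives were other scalings, the second table, the prior count, the TPM minimum and leaving out each replicate.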

Additional observations from a re-analysis of the deposited data

How the results depend on the processing

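The calls of Irs2 and Ddit4 as lower in replicate 2 held under the 4 other scalings, the second table and a prior count of 0.5. Signs turned for ratios near 0: under spike-in scaling Insr was at 0.038, Akt2 at 0.0030 and Mtor at 0.057, Mtor was at 0.015 with nuclear protein-coding counts, and Pik3ca was at -0.039 with total counts. The other 65 recomputed ratios kept their sign and their side of the 2-fold call. By the adjusted p alone, 7 of 60 alternative tests crossed 0.05: Insr, Igf1r, Akt2 and Pik3ca with spike-ins, Insr and Akt2 with nuclear protein-coding counts, and Mtor with total counts. Without a minimum on TPM 205 genes were called higher and 199 lower, and with a minimum of 5 TPM 18 and 45, since the number of genes tested changed. No scaling moved the median of all genes by 0.1 or more. Rescaling TPM to nuclear protein-coding genes raised all 10 levels past 1 SD (Irs2 to 11.9 and Ddit4 to 111), and the second table moved Pik3ca to 13.5 and Mtor to 16.2 TPM. Leading transcript shares moved past 1 SD for 7 of the 10 genes under the second table, for 7 with counts in place of TPM (Insr-201 to 91.4%, Igf1-202 to 86.2%) and for 3 over protein-coding transcripts only (Insr-201 to 86.9%). Family shares moved for 6 under the second table (Pik3ca to 65.1% and Mtor to 44.9%) and for 5 by counts. With a minimum of 5 TPM the median ratio of the members that remained was -0.092. No paired analysis was possible because there is only 1 group. With 1 group of 2 libraries nothing separates an animal's state from sampling, dissection or library making. Small counts limit the Igf1 transcript shares, with 10.7 in replicate 2 and 18.1 in replicate 1 for the 52-base exon by the second table.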

Other observations

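For the lists below, the shares over all tested genes were 0.968% called lower and 54.5% below 0. Among 13 tested hypoxia-induced genes Ddit4 was the only one called, lower in replicate 2. With Ddit4 left out, 10 of 12 were below 0, with a median log2 ratio of -0.094. Hk2, the hexokinase of glucose-using muscle, led the list at 136 TPM in replicate 2 and 144 TPM in replicate 1, followed by Egln1, an oxygen sensor, at 117 TPM in replicate 2 and 125 TPM in replicate 1, and Vegfa, the vascular growth factor, at 81.7 TPM in replicate 2 and 96.6 TPM in replicate 1. Of 16 tested immediate-early genes, 13 were below 0 and 2 were called lower, Nr4a1 and Atf3, with a median of -0.29, and Jund, an AP-1 subunit, was the most abundant at 41.7 TPM in replicate 2 and 55.5 TPM in replicate 1. Nr4a1, a nuclear receptor induced by many stimuli, was at 1.66 TPM in replicate 2 and 4.24 TPM in replicate 1. Egr1 had the highest ratio of that list, 0.67, at 2.33 TPM in replicate 2 and 1.57 TPM in replicate 1.

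Of 10 liver markers 3 were tested, and Ahsg and Cyp2e1 were called lower, Ahsg at 1.29 TPM in replicate 2 and 3.38 TPM in replicate 1, while Alb had 0 counts in both. Of 10 skeletal muscle markers 7 were under 1 TPM in both libraries, with Ckm and Acta1, which heart also expresses, the most abundant. Of 8 lung epithelial markers 7 were under 1 TPM in both, and all 10 markers of neutrophils, T, B and NK cells were under 1 TPM in both.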
